A study of Rattus norvegicus with 4 samples.

Results

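The ribosomal protein genes of the rat were followed across the tissues that lie side by side in a section of the trigeminal nerve. Members were chosen by symbol alone, as every gene row whose symbol begins with Rpl or Rps and a digit and that held 100 or more unique molecular identifiers (UMIs, each counting 1 captured RNA molecule) over all spots. Of 32623 gene rows, 102 had such a symbol and 87 passed the limit. The 87 members comprised 39 rows of large subunit proteins, 29 rows of small subunit proteins, 9 kinases whose symbols begin with Rps6k, 7 paralog-like genes with a symbol such as Rpl22l1, 1 pseudogene-like row and 2 others, Rps19bp1 and Rps4y2. The 68 subunit rows are called canonical here, and their summed UMIs are called the family. They covered 65 of the 73 canonical symbols listed.

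The members just inside the limit were Rpl39l with 110 UMIs and Rpl30l1 with 179 UMIs. Just outside were Rpl3l with 90, Rps6kl1 with 77 and Rpl7l1 with 74 UMIs. Among the 15 rows outside the limit, 6 were listed at 0 UMIs, among them Rpl8, Rpl38 and Rpl39. Ribosomal protein genes have many near-identical copies in the genome, and how reads were divided between copies is not given in the sources used here, so the UMIs of a single row are uncertain wherever a copy exists.

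Spots from 4 Visium capture areas were used, a slide format in which each spot carries its own barcode and collects RNA from the tissue above it. TN1, TN2 and TN3 each held the trigeminal root, the ganglion and its proximal branches from the diseased side of 1 adult male Sprague-Dawley rat with unilateral mechanical compression of the trigeminal nerve root, a model of trigeminal neuralgia. HC, the healthy control, held tissue of 2 rats in a single area. By the series description it came from the healthy side of TN animals, and by the study's methods from sham-operated rats, so the control is used here only as labelled, and TN against HC may compare sides of the same animals. All rats were wild type, and a spot holds parts of several cells.

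Ribosomal proteins build the 2 subunits of the ribosome, and each subunit contains its proteins in fixed numbers. Their mRNAs belong to the TOP class, which begins with a cytidine followed by a run of pyrimidines at the 5′ end and is translated under the control of mTOR. Outside the ribosome, some of these proteins act in stress signalling: Rpl5 and Rpl11 bind Mdm2 with the 5S RNA, and the S6 kinases (Rps6kb) phosphorylate Rps6 downstream of mTOR. The RSK kinases (Rps6ka) share the symbol stem for historical reasons and are targets of growth factor signalling. In neurons, ribosomal protein mRNAs are also found in axons.

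The sequences around the transcription starts of some members on which the results turn are shown first, 15 bases on either side of the RefSeq start (build GRCr8), 5′ to 3′ on the gene's strand. Starts of Rps20, Rpl30 and Rps25 were not matched by symbol, so these members are not shown. Capitals mark each C followed by 4 or more further pyrimidines.
Rpl4 (chr8:73566462-73566491, plus strand): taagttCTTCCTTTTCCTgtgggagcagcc
Rpl14 (chr8:129163605-129163634, plus strand): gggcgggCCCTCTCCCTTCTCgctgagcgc
Rpl5 (chr14:1995211-1995240, minus strand): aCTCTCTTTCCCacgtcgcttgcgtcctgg
Rps15a (chr1:181860270-181860299, minus strand): cggcgttttCTTTCCacagtcaccatggtg
Rpl12 (chr3:36661925-36661954, plus strand): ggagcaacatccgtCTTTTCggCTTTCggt
Rps16 (chr1:92770643-92770672, plus strand): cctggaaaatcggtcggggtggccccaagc
Rpl26 (chr10:54109677-54109706, plus strand): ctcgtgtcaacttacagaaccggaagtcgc
Rps10 (chr20:5700730-5700759, minus strand): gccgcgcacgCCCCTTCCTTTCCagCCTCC
Rpl37 (chr2:55942930-55942959, plus strand): tggtaggcgtaCTTTCTCTTCCggtCTCTT
Rpl4, Rpl14, Rpl5 and Rps15a were above the family in the ganglion against both myelin regions, and Rpl12 was below it against both. Among the comparisons with myelin, Rpl26 was called below it only against central myelin and Rps16 only against peripheral myelin. Rps10 and Rpl37 differed by capture area. These groups were chosen by their values.

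Such a tract was found in 38 of the 49 canonical members whose promoter was matched by symbol (77.6%), against 34.8% of all 24206 RefSeq promoters in the same 30-base window. The literal motif CTTTC was found on the gene's strand in 40.8% of these members and in 3.65% of all promoters, and its reverse complement GAAAG in 2.04% and 3.79%. CTTTC lies within the tract where both are present. Of the 9 kinase members, 2 held a tract, and none of the 3 matched paralog-like members did. A match describes these letters only and is not evidence of a used start.

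Spots were grouped into 10 clusters from genes other than those with an Rpl or Rps symbol, and clusters were named from marker lists. Clusters 2, 4 and 8 formed the ganglion region (sensory neuron markers), cluster 1 the central myelin region, cluster 5 the peripheral myelin region and cluster 3 the blood and bone region. Cluster 4 also carried the peripheral myelin gene Prx among its leading genes. Cluster 8 was led by nerve injury genes and held 0 HC spots. Clusters 7, 9 and 10 were called central neuron, astrocyte and connective tissue, and cluster 6 remained unnamed. The peripheral myelin region held 408 spots in TN1 and 392 in TN3 but 20 in HC, and its 13 spots in TN2 were not used. The 4 areas held 23546025 to 41335930 UMIs in 1256 to 2013 spots. Median UMIs per spot ranged from 25019 to 40087 over the areas in the ganglion, from 4464.5 to 11357 in central myelin and from 3796.5 to 6912 in blood and bone. Mitochondrial transcripts took 5.06% to 7.55% of UMIs in the ganglion and 9.58% to 13.8% in central myelin. Of 3573 distinct barcodes, 2337 occurred in more than 1 area, as the barcodes of a Visium slide repeat.

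Which tissue gave the family its largest share of the RNA was asked first. In the ganglion, the family held 4.40%, 5.12% and 4.81% of all UMIs in TN1, TN2 and TN3, and 3.57% in HC. In central myelin it held 5.34%, 5.64%, 5.78% and 5.06% in the same order. The ganglion was lower in each of the 4 areas, by 0.98 percentage points on average (SD of the differences 0.39), with p = 0.125 in an exact two-sided sign permutation test over areas, the smallest p that 4 areas allow. Peripheral myelin held 5.77% in TN1, 6.33% in TN3 and 4.06% in HC, above the ganglion of the same area in 3 of 3 areas (exact two-sided p = 0.25, the smallest possible). Blood and bone held 4.48%, 5.24%, 5.79% and 4.21% and was above the ganglion in 4 of 4 areas, though by only 0.07 percentage points in TN1.

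The regions with 20 spots or more in 2 areas only lay at both ends of the order. The central neuron region held 3.66% in TN1 and 3.62% in TN2, the lowest shares within either of these areas. The astrocyte region held 6.503% in TN2 and 6.81% in TN3, unnamed cluster 6 held 6.85% and 7.25%, and connective tissue held the highest shares, 7.07% and 7.54%. The order within the 2 areas was the same for these regions, and no test was made on them. In bulk sums over spots, fewer cells of a type and less RNA per cell cannot be told apart, and a share also falls when other transcripts rise.

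**Figure D1:**
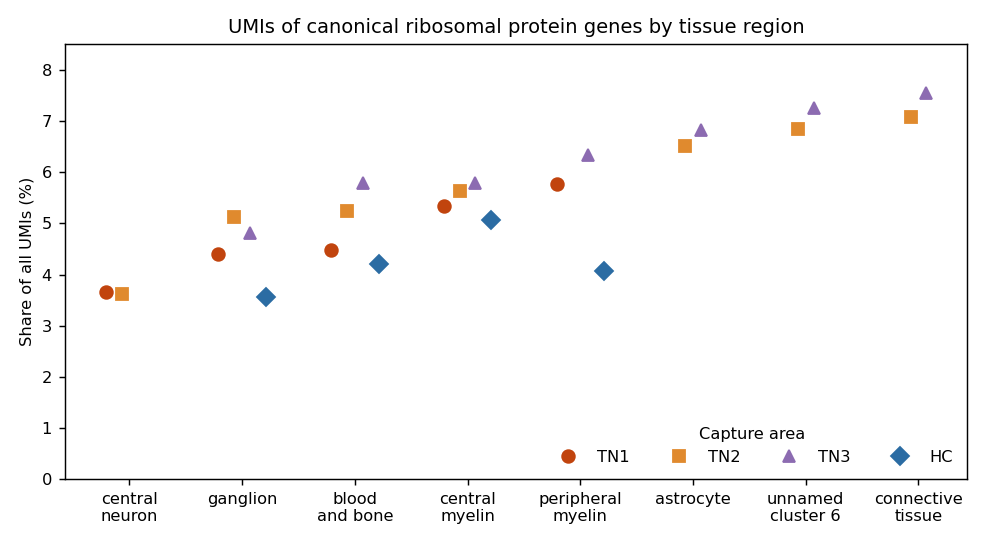
The vertical axis gives the share of all UMIs taken by the canonical ribosomal protein members (%), and the horizontal axis the tissue region, with 1 point for each capture area. HC lies below every TN area in each of the 4 regions where it has a point, and connective tissue reaches 7.54% where the central neuron region stays at 3.62% and 3.66%.

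The same comparison was then made gene by gene, on UMI sums per region and area with the area as a block. Between the ganglion and central myelin, 59 of the 85 members tested passed (edgeR quasi-likelihood test, adjusted p under 0.05), 5 higher and 54 lower in the ganglion, beside 55.1% of all 11806 genes and 24% that were lower. Rpl39l and Rpl30l1 did not pass the filter on low counts. In all tissue comparisons, the shares of all genes include genes that were used to form the clusters, whereas no member was. Among canonical members, 50 of 68 were lower and 0 higher (51 at an unadjusted p under 0.05, beside 60% of all genes), with 26 of 39 large and 24 of 29 small subunit rows lower. The median log2 fold change was -0.44 over the canonical members and 0.09 over all genes. Under DESeq2 size factors these medians were -0.55 and -0.02, so that the distance between them stayed at -0.53.

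Among the canonical members Rps20, a small subunit protein of the ribosome's head, had the lowest fold change. Rps20 measured 502, 528, 579 and 316 UMIs per 1000000 (CPM) in the ganglion of TN1, TN2, TN3 and HC. In central myelin it measured 1004, 963, 1192 and 966 CPM. Every ganglion value lay below every central myelin value, with a log2 fold change of -1.27 (edgeR adjusted p = 2.46e-07). Rpl12, a protein of the ribosomal stalk base, measured 302, 235, 246 and 120 CPM in the ganglion and 488, 360, 432 and 289 CPM in central myelin. Its TN1 ganglion value lay above the HC central myelin value, while within each area the ganglion was lower (log2 fold change -0.98, edgeR adjusted p = 8.26e-07). Rpl37a, the second member by UMIs, was nearer the middle of the family. It measured 1585, 1738, 1730 and 1368 CPM in the ganglion and 2118, 2147, 2284 and 2081 CPM in central myelin, without overlap (log2 fold change -0.56, edgeR adjusted p = 0.000459).

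Other members were not called. Rpl4, a large subunit protein that lines the exit tunnel, measured 802, 960, 884 and 746 CPM in the ganglion of TN1, TN2, TN3 and HC. In central myelin it measured 622, 686, 718 and 817 CPM. It was higher in the ganglion of all 3 TN areas but lower in that of HC, and the log2 fold change of 0.12 did not pass (edgeR adjusted p = 0.437). Rpl41, the smallest ribosomal protein and the member with the most UMIs (8.68% of the family), measured 3535, 5285, 4076 and 3348 CPM in the ganglion and 3381, 3873, 4149 and 3396 CPM in central myelin. These values overlapped (log2 fold change -0.01, edgeR adjusted p = 0.977). Rpl14 and Rpl5 had log2 fold changes of 0.04 and -0.04, with edgeR adjusted p = 0.813 and 0.821.

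To find members that depart from the family itself, the test was repeated with the family's UMIs as the library size, so that a value of 0 means a change equal to that of the family. Of the 85 members, 37 departed between ganglion and central myelin, 19 upwards and 18 downwards, beside 63.9% of all genes, and 22 departed without TN3. This scale holds the canonical members near 0 (median -0.02) and moves all genes by the family's own shift (median 0.54). Where the family shifts, the shares of all genes beside departing members, here and below, include that shift. They are then no benchmark for the members. Large subunit rows departed upwards in 9 and downwards in 7 cases, and small subunit rows in 2 and 9. Rpl4 stood furthest above the family with a relative log2 fold change of 0.55 ± 0.11 (SE, edgeR adjusted p = 0.000132). As a part of the family, Rpl4 took 182, 188, 184 and 209 of every 10000 family UMIs in the ganglion of TN1, TN2, TN3 and HC, and 117, 122, 124 and 162 in central myelin. The ganglion values were all higher. Rpl14 (0.47 ± 0.10), Rpl41 (0.41 ± 0.11), Rpl5 (0.39 ± 0.10) and Rps15a (0.35 ± 0.11) followed, each with an SE in log2 units.

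At the other end, Rps20 lay furthest below the family, at -0.84 ± 0.11 (SE, edgeR adjusted p = 1.7e-06). It took 114, 103, 120 and 88.5 of every 10000 family UMIs in the ganglion of TN1, TN2, TN3 and HC, and 188, 171, 206 and 191 in central myelin. No ganglion value reached the lowest central myelin value. Rpl12 (-0.55 ± 0.12), Rpl30 (-0.53 ± 0.12) and Rpl26 (-0.45 ± 0.12) were also below the family. Rpl30 of yeast binds its own transcript and controls its splicing, and mammalian Rpl26 binds the mRNA of p53.

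**Figure D2:**
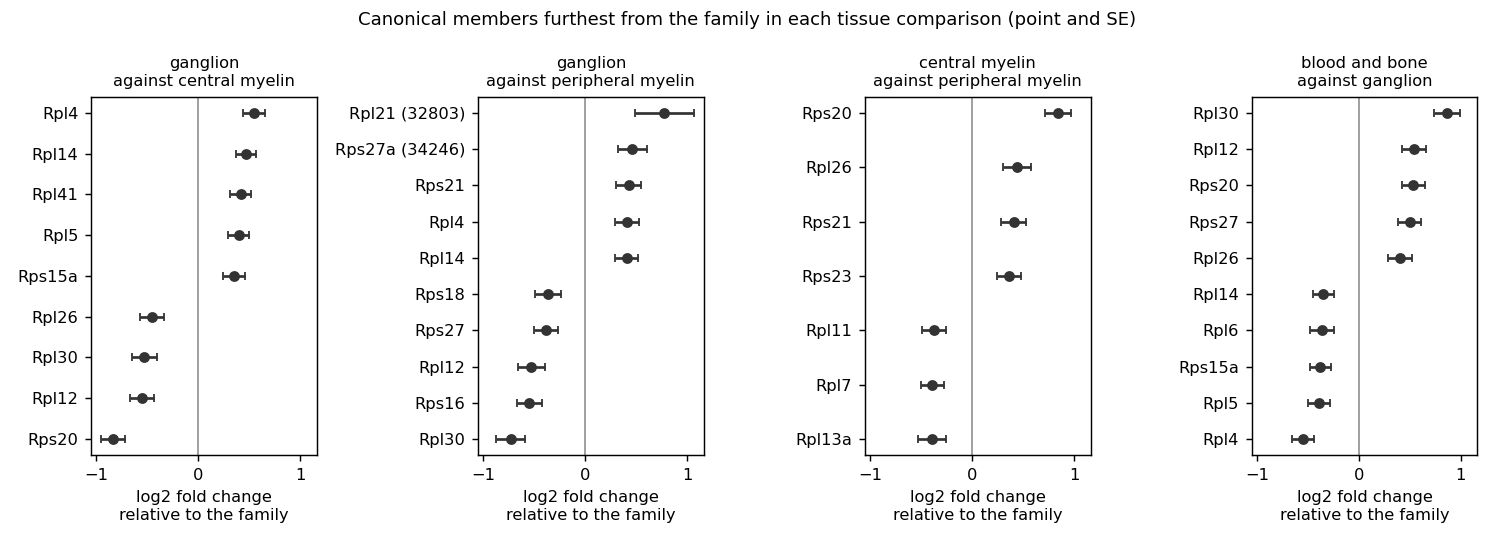
Each panel shows a tissue comparison, with the canonical members furthest from the family on the vertical axis and the log2 fold change relative to the family on the horizontal axis (point and SE from edgeR). Rpl4 lies at 0.55 and Rps20 at -0.84 in the ganglion against central myelin, and Rps20 lies at 0.84 in central myelin against peripheral myelin. Digits in brackets are the end of the gene identifier where a symbol has several rows.

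Against peripheral myelin, 49 of 85 members passed in the ganglion, 3 higher and 46 lower, where 48.1% of all genes passed. Of the 68 canonical members, 41 were lower, beside 21.6% of all genes, and 0 higher (47 at an unadjusted p under 0.05, beside 54.4%), and their median log2 fold change was -0.38 against 0.01 over all genes. This count rests partly on TN1: without it 17 of 85 members passed, 3 higher and 14 lower, a smaller share than the 28.9% of all genes, with a median of -0.25. Relative to the family, 25 members departed, 17 upwards and 8 downwards, beside 52.6% of all genes, and the number was 9 without TN1 and 11 without TN3. Canonical rows made up 9 of the upward and 7 of the downward calls. The excess upwards thus came mostly from members outside the family, 5 of them kinases.

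Rps16, a small subunit protein whose tail reaches the decoding site, was among those below the family in the ganglion. Rps16 measured 868 CPM in TN1, 841 CPM in TN3 and 817 CPM in HC in the ganglion, and 1980, 1498 and 1186 CPM in peripheral myelin. Every ganglion value was lower, and the relative log2 fold change was -0.55 ± 0.12 (SE, edgeR adjusted p = 0.000661). Rpl30 lay lowest (-0.73 ± 0.14), and Rpl12 (-0.53 ± 0.13), Rps27 (-0.39 ± 0.12) and Rps18 (-0.37 ± 0.13) were also below the family. Above it were Rpl4 (0.41 ± 0.12), Rpl14 (0.41 ± 0.11) and Rps21 (0.43 ± 0.12). A low-count row of Rpl21 (ENSRNOG00000032803, 0.78 ± 0.29) and a row of Rps27a (ENSRNOG00000034246, 0.46 ± 0.14) were above as well. These rows have a second row of the same symbol among the members, so their counts are uncertain. The call of Rps18 was lost under 6 of 12 alternatives and that of the Rpl21 row under 5.

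Central myelin is the product of oligodendrocytes and peripheral myelin that of Schwann cells, but both regions also held markers of other cells. In central myelin the summed astrocyte markers measured 4680 to 8573 CPM, beside 2684 to 3157 CPM of central myelin markers. In peripheral myelin the connective tissue markers measured 4194 to 7670 CPM, beside 89489 to 123335 CPM of peripheral myelin markers. The part of these cells in any comparison with these regions was not tested. Between the 2 regions, the family's share differed in both directions. Central minus peripheral myelin ranged from -0.55 to 0.996 percentage points over 3 areas (SD 0.86), above 0 in HC only (exact two-sided sign permutation p = 1, smallest possible 0.25). Gene by gene, 8 of 85 members passed, 5 higher and 3 lower in central myelin, where 29.6% of all genes passed. With genes whose symbols begin with Mt-, Hba or Hbb left out, the split was 4 higher and 6 lower. The canonical median was 0.09 (all genes -0.00), and it became -0.10 without HC, whose peripheral myelin rests on 20 spots, so no direction is given. Relative to the family 10 members departed, 5 each way, beside 26.7% of all genes, and 3 departed whichever area was left out. With all areas, canonical rows made up 5 of the upward and 3 of the downward calls.

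Rps20 gave the largest value here too. In peripheral myelin it measured 669 CPM in TN1, 796 CPM in TN3 and 338 CPM in HC, below the 1004, 1192 and 966 CPM of central myelin in the same areas. These groups did not overlap, and the relative log2 fold change was 0.84 ± 0.13 (SE, edgeR adjusted p = 2.44e-05). Rpl26 (0.44 ± 0.14), Rps21 (0.41 ± 0.12) and Rps23 (0.36 ± 0.12) were also above the family in central myelin. Rpl13a, a protein known for its part in the GAIT complex, was below it at -0.39 ± 0.14, with Rpl7 (-0.39 ± 0.11) and Rpl11 (-0.37 ± 0.12). Apart from that of Rps20, each of these calls was lost under at least 4 of 12 alternatives.

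In blood and bone, 42 of 85 members passed against the ganglion, 39 higher and 3 lower, where 39.4% of all genes passed. Of the 68 canonical members 36 were higher, beside 17.5% of all genes, and 0 lower (41 at an unadjusted p under 0.05, beside 47.7%), with a median log2 fold change of 0.34 against -0.05 over all genes. The ganglion enters this comparison and both comparisons with myelin, so they are not independent of each other. In blood and bone the summed central myelin markers measured 1109 to 1321 CPM against 84.1 to 219 CPM in the ganglion, and the astrocyte markers 1798 to 4067 CPM against 319 to 536 CPM. Mitochondrial transcripts took 12.4% to 20.2% of UMIs against 5.06% to 7.55%, and the part of these in the family's values was not tested. Relative to the family, 26 members departed, 12 upwards and 14 downwards, beside 50.5% of all genes, and the number was 17 without TN1, 14 without TN2 and 11 without TN3. The canonical rows split the other way, 11 upwards and 9 downwards, and 4 of the downward calls were kinases.

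Rpl30 was furthest above the family in blood and bone. It measured 350, 197, 171 and 176 CPM there in TN1, TN2, TN3 and HC, and 210, 95.1, 80.2 and 78.9 CPM in the ganglion. Blood and bone was higher in each area, although the TN1 ganglion exceeded the other blood and bone values (relative log2 fold change 0.86 ± 0.13, SE, edgeR adjusted p = 1.53e-05). Rpl12 (0.54 ± 0.12), Rps20 (0.53 ± 0.12), Rps27 (0.50 ± 0.11) and Rpl26 (0.40 ± 0.12) were above the family as well. Rpl4 lay lowest at -0.54 ± 0.11, followed by Rpl5 (-0.39 ± 0.11), Rps15a (-0.38 ± 0.11), Rpl6 (-0.36 ± 0.12) and Rpl14 (-0.35 ± 0.10). The call of Rpl6 was lost under 5 of 12 alternatives. The leading genes of this region include the myeloid gene S100a8 and the erythroid gene Slc4a1.

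Other genes of the translation machinery were counted in the ganglion against central myelin, where 31.1% of all genes were higher and 24% lower. Of the 7 ribosomal proteins whose symbols lie outside the rule, 3 were lower than in central myelin and 0 higher: the stalk proteins Rplp1 (log2 fold change -0.88) and Rplp0 (-0.41), and Fau (-0.35). Among 14 elongation factors and other TOP mRNAs tested, 3 were higher and 5 lower. Of 21 initiation factors, 7 were higher and 3 lower, including Eif4g1 (-1.65, at 8.38 CPM or less in every sum), Eif6 (0.75), Eif5a (0.61) and Eif3b (0.58). Of 24 ribosome biogenesis genes, 9 were higher and 2 lower, including Nolc1 (0.98), Nop56 (0.93), Rrs1 (-1.06) and Polr1d (-0.71). Of 7 regulators tested, 3 were higher and 0 lower: Myc (0.94), Rptor (0.71) and Mtor (0.38). The median log2 fold change was -0.35 for the ribosomal proteins outside the rule, -0.18 for the elongation list, 0.15 for the initiation list and 0.22 for the biogenesis list, beside 0.09 over all genes. The shares higher in the initiation and biogenesis lists lie near that of all genes.

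Eef1a1 and Eef1a2 encode alternative forms of the elongation factor that brings aminoacyl-tRNA to the ribosome, and Eef1a2 is the form of neurons and muscle. Eef1a2 measured 702, 654, 432 and 965 CPM in the ganglion of TN1, TN2, TN3 and HC, and 270, 68.0, 27.7 and 117 CPM in central myelin. It was higher in the ganglion without overlap (log2 fold change 2.60 ± 0.30, SE, edgeR adjusted p = 1.39e-07). Eef1a1 measured 380, 145, 81.6 and 52.3 CPM in the ganglion and 647, 288, 167 and 206 CPM in central myelin. It was lower in the ganglion of each area (log2 fold change -1.33 ± 0.18, SE, edgeR adjusted p = 1.98e-06), and TN1 was the highest area in both regions. Against peripheral myelin the log2 fold changes were 2.38 for Eef1a2 and -0.82 for Eef1a1, both called.

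Paralog-like members were set beside their canonical partners where the partner had UMIs. Rpl22 had 0 rows and Rpl39 had 0 UMIs, so Rpl22l1 and Rpl39l had no partner to compare. Rpl36al held 50555 UMIs and Rpl36a 3511 UMIs over all spots, and Rps10l1 held 72538 against 3258 for Rps10, so that most UMIs of these pairs were assigned to the paralog-like row. Rpl36al measured 343, 341, 288 and 237 CPM in the ganglion of TN1, TN2, TN3 and HC, and 598, 515, 491 and 473 CPM in central myelin. The groups did not overlap (log2 fold change -0.92 ± 0.12, SE, edgeR adjusted p = 1.28e-06), and Rpl36a fell by 0.83 on the log2 scale (edgeR adjusted p = 1.13e-05). Rps10l1 was lower in the ganglion than in central myelin (-0.48 ± 0.12) and than in peripheral myelin (-0.58 ± 0.13), whereas Rps10 had -0.25 against central myelin and did not pass (edgeR adjusted p = 0.156). Rpl22l1 was lower than in central myelin by -0.36 ± 0.12 and measured -0.04 ± 0.13 against peripheral myelin, which was not called.

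Rps27l, a p53 target and paralog of Rps27, was lower in both other regions than in peripheral myelin. Rps27l measured 233 CPM in TN1, 277 CPM in TN3 and 137 CPM in HC in peripheral myelin. In the ganglion of the same areas it measured 105, 167 and 85.6 CPM, and in central myelin 117, 138 and 99.0 CPM. Peripheral myelin was the highest of the 3 regions in each area, with a log2 fold change of -0.93 ± 0.15 for the ganglion (edgeR adjusted p = 1.95e-05) and -0.88 ± 0.16 for central myelin (edgeR adjusted p = 9.6e-05), both with an SE. Between ganglion and central myelin its log2 fold change was -0.05 ± 0.14 and not called. Its partner Rps27 was lower in the ganglion than in central myelin by -0.83 on the log2 scale (edgeR adjusted p = 1.15e-05). Rps18l1 held 1003 UMIs in all, against 94846 for Rps18. It was lower in the ganglion than in peripheral myelin by -0.94 ± 0.23 and in central than in peripheral myelin by -0.75 ± 0.28, the latter lost under 10 of 15 alternatives.

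The starts of paralog-like and kinase genes are shown for comparison with those of the canonical members above. Most of them lack the tract marked by capitals, as do Rps16 and Rpl26 above, and only 34.8% of all RefSeq promoters hold it.
Rps27l (chr8:76443643-76443672, plus strand): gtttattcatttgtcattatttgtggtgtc
Rpl22l1 (chr2:113683181-113683210, plus strand): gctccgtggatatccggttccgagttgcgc
Rps6ka3 (chrX:39431670-39431699, minus strand): cgagtagcgaaggagccgggccggctgtgg
Rps6ka5 (chr6:125735741-125735770, minus strand): gaggggaggaggcggaggagctccgcggcc
Rps6ka6 (chrX:80638896-80638925, minus strand): atattttttttccagataaatccactttga
Rps6kc1 (chr13:105021421-105021450, minus strand): cgCCCCCTCgtcgcggCTCTCgtgctctgt

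Of the 9 kinase members, 4 were higher in the ganglion than in central myelin and 1 was lower, a share called that is near the 55.1% of all genes. Rps6ka3, which encodes RSK2, measured 30.2, 28.7, 34.6 and 23.8 CPM in the ganglion of TN1, TN2, TN3 and HC, and 15.7, 22.7, 16.5 and 12.01 CPM in central myelin. All ganglion values were higher (log2 fold change 0.72 ± 0.17, SE, edgeR adjusted p = 0.00115). Rps6ka6, which encodes RSK4, measured 8.7, 6.4, 5.5 and 7.5 CPM in the ganglion and 3.1, 2.7, 1.7 and 3.5 CPM in central myelin, again without overlap (1.23 ± 0.34, edgeR adjusted p = 0.00365). Rps6ka6 held 686 UMIs over all spots and 0 in blood and bone of TN1 and TN2, so its values outside the ganglion rest on few UMIs. Rps6kc1 (0.50 ± 0.13) and the S6 kinase Rps6kb2 (0.41 ± 0.15) were higher as well, and the call of Rps6kb2 was lost under 10 of 15 alternatives.

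Rps6ka5 encodes MSK1, a nuclear kinase that phosphorylates histone H3 and CREB. It measured 18.7, 17.2, 22.7 and 19.8 CPM in the ganglion of TN1, TN2, TN3 and HC. In central myelin it measured 33.9, 35.3, 43.3 and 30.4 CPM. Every ganglion value was lower (log2 fold change -0.96 ± 0.14, SE, edgeR adjusted p = 3.36e-06), and the value against peripheral myelin was -0.70 ± 0.16 (edgeR adjusted p = 0.000846). Against peripheral myelin Rps6ka6 (1.86), Rps6ka3 (0.998) and Rps6kc1 (0.86) were higher in the ganglion, with few UMIs of Rps6ka6 in peripheral myelin. Rps6ka1, Rps6ka2, Rps6ka4 and Rps6kb1 were not called in any of the 4 tissue comparisons. Rps19bp1, a nucleolar protein named for binding Rps19, was higher in the ganglion than in central myelin (log2 fold change 0.47 ± 0.12, edgeR adjusted p = 0.00242) and lower in blood and bone than in the ganglion (-0.69 ± 0.14, edgeR adjusted p = 0.000367).

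**Figure D3:**
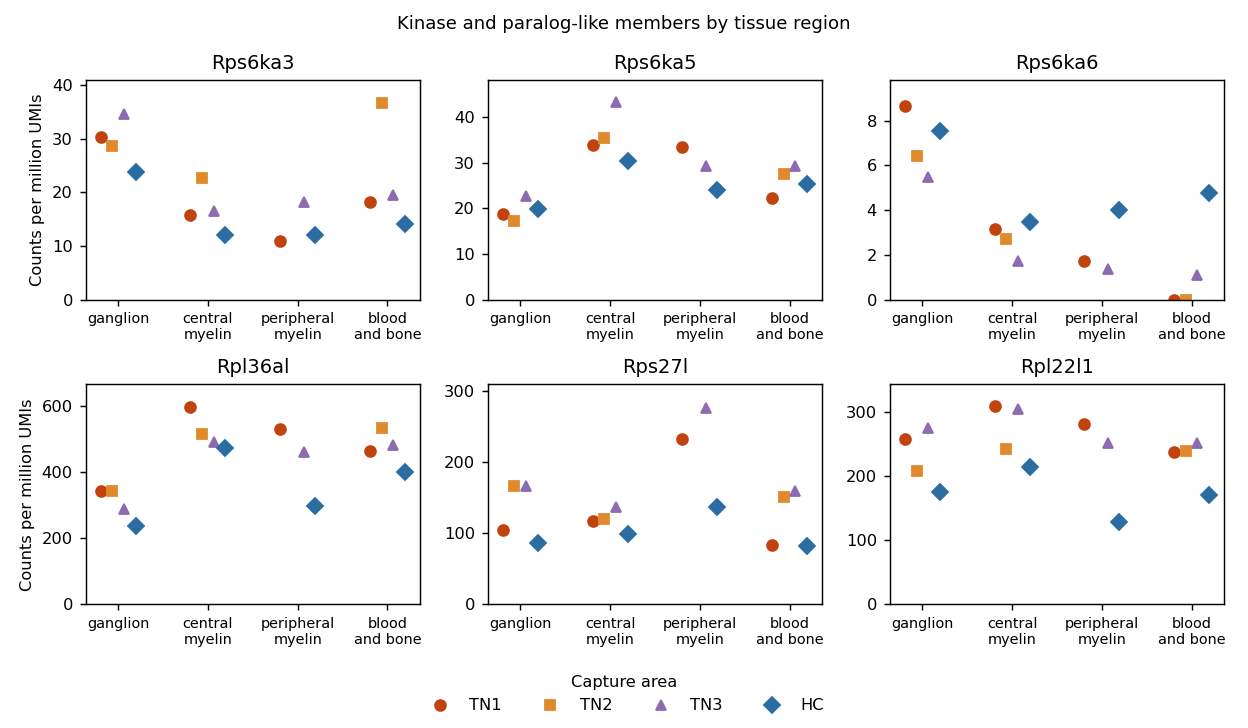
CPM (vertical axes, from 0) of 3 kinase and 3 paralog-like members in the 4 tissue regions, with 1 point for each capture area. Rps6ka3 and Rps6ka6 are higher and Rps6ka5 is lower in the ganglion than in central myelin in every area, and Rps27l is highest in peripheral myelin.

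Some canonical members differed more between capture areas than between tissues. Relative to the family, 10 canonical members were highest in TN1 in all 5 regions that TN1 shares with another area, beside 2.38% of all genes. Of these, Rps10 and Rpl37 were so by 2-fold or more in every region, which was the case for 0.212% of all genes. All genes were divided by the family's UMIs here as well. The family's share was lowest in HC wherever HC had a region, which makes TN1 less likely to be highest for genes outside the family. The shares of all genes are therefore no measure of how rare the pattern is. Rps10, a protein of the small subunit head, took 12.1, 3.7, 1.8 and 4.8 of every 10000 family UMIs in the ganglion of TN1, TN2, TN3 and HC. In central myelin it took 13.5, 3.2, 1.3 and 3.5. TN1 stood apart in both regions, while the ganglion and central myelin of the same area differed less. Rpl37, a zinc-binding protein of the large subunit, took 151, 68.1, 49.5 and 69.2 in the ganglion and 188, 83.4, 54.9 and 87.8 in central myelin.

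Rpl30 took 47.7, 18.6, 16.7 and 22.1 of every 10000 family UMIs in the ganglion of TN1, TN2, TN3 and HC, and Rps25, needed for some internal ribosome entry, took 63.7, 28.7, 28.6 and 18.1. TN1 was again the highest. A row of Rpl32 (ENSRNOG00000010746) took 129, 58.3, 36.3 and 54.2, and Rpl26 took 119, 69.4, 61.6 and 65.8. For these 6 members TN1 was the highest area in the ganglion, and for the paralog-like Rps10l1 it was the lowest, with 80.7 in TN1 against 103, 104 and 105 in the other areas. The other Rpl32 row (ENSRNOG00000032605), with 10770 against 43654 UMIs, was also lowest in the TN1 ganglion. It took 12.1 there, against 15.6, 17.5 and 13.4 in TN2, TN3 and HC. Eef1a1, no member, was highest in TN1 too, as given above. Over all spots TN1 had the fewest UMIs per spot of the 4 areas (median 9487), but this did not hold in each region. In the ganglion its median was 29379, against 40087 in TN2, 25019 in TN3 and 26453 in HC. TN1 was lowest in peripheral myelin (7944.5) and the central neuron region (12555), but not in central myelin or blood and bone. The part of depth in the shares of these members was not tested, and area and animal cannot be told apart.

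**Figure D4:**
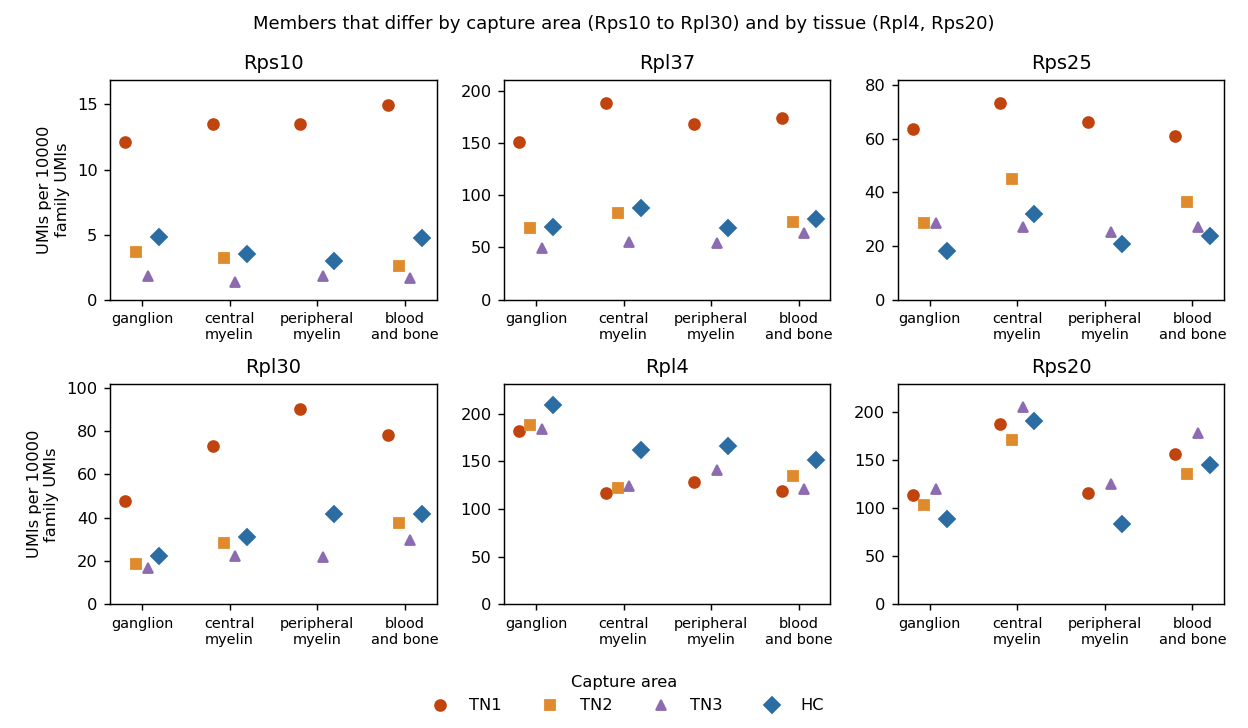
UMIs of 6 canonical members per 10000 UMIs of the family (vertical axes, from 0) in the 4 tissue regions, with 1 point for each capture area. Rps10, Rpl37, Rps25 and Rpl30 are highest in TN1 in every region, whereas Rpl4 is highest in the ganglion and Rps20 in central myelin in each area.

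Whether compression changed the family in the ganglion was asked with the 3 TN areas against HC. The family's share was 4.78% ± 0.36 (SD, n = 3) in TN and 3.57% in HC, a ratio of 1.34, with p = 0.25 in an exact two-sided permutation test over areas, the smallest p possible with 3 areas against 1. In central myelin it was 5.58% ± 0.23 (SD, n = 3) and 5.06%, a ratio of 1.10. Within cluster 2 alone, the ganglion spots with the most neuronal genes, the shares were 4.12%, 4.31% and 4.43% in TN1 to TN3 and 3.49% in HC, and within cluster 4 they were 4.92%, 5.63% and 5.05% against 3.92%. Every TN value thus lay above HC within each cluster. Cluster 8, with no HC spot, held 4.71%, 5.23% and 5.09%.

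Gene by gene, no member passed in the ganglion (0 of 87 by edgeR, beside 0% of 13087 genes). At an unadjusted p under 0.05, 18 canonical members were found, where 9.84% of all genes were, and DESeq2 called 1 member, Rpl12, and 0.902% of all genes. Of the 68 canonical members, 64 had a log2 fold change above 0, with a median of 0.39 against 0.03 over all genes. All 3 TN areas lay above HC for 50 of the 68 (73.5%), beside 28.4% of all genes. In cluster 2 alone, chosen after the data were seen, the median was 0.26. Without TN1, 5 of 87 members passed, a share close to the 5.07% of all genes that did: Rpl12, Rpl6, Rps25 and Rps27l higher, and the Rpl21 row ENSRNOG00000032803 lower. The spread there comes from the TN areas only, since HC is a single area.

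Rps25 had the highest log2 fold change among members whose TN values did not straddle HC. It measured 278, 143 and 138 CPM (scaled by TMM) in the ganglion of TN1, TN2 and TN3, and 66.9 CPM in HC. All TN values were more than 2-fold that of HC, with TN1 far above the others (log2 fold change 1.48 ± 0.48, SE, edgeR adjusted p = 0.504). Rpl12 measured 299, 230 and 246 CPM against 124 CPM, a tighter group (1.06 ± 0.22, edgeR adjusted p = 0.504, DESeq2 adjusted p = 0.0121). Rpl6 measured 358, 442 and 417 CPM against 237 CPM, Rpl17 988, 861 and 1111 CPM against 587 CPM, and Rps4x 611, 724 and 818 CPM against 440 CPM. None of these overlapped with HC, and none passed.

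In the other direction, the Rpl21 row ENSRNOG00000032803 measured 9.6, 13.8 and 6.7 CPM in TN1, TN2 and TN3 and 30.03 CPM in HC (log2 fold change -1.57 ± 0.37, edgeR adjusted p = 0.504). Rpl39l measured 0.16, 0.94 and 0.27 CPM against 1.69 CPM, the level of a gene with only 110 UMIs over all spots. The Rps27a row ENSRNOG00000034246 (107, 126 and 78.6 against 139 CPM), Rpl30l1 (0.99, 0.47 and 1.35 against 1.36 CPM) and the kinase Rps6ka2 (51.9, 51.3 and 53.4 against 64.2 CPM) were below HC in all 3 TN areas too. Rps27a encodes a fusion of ubiquitin with a ribosomal protein, and Rps6ka2 encodes RSK3. Rpl21 and Rps27a each also have a row with more UMIs, ENSRNOG00000000957 (77314 against 2213) and ENSRNOG00000004426 (152871 against 15678). Per 10000 family UMIs in the ganglion, this Rpl21 row took 126, 110 and 131 in TN1, TN2 and TN3 and 111 in HC. This Rps27a row took 256, 242 and 245 against 234. The family's own share was higher in TN, so the lower values belong to the smaller rows only.

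Markers of other cell types differed in the same contrast. In the ganglion, 8 of 9 macrophage markers and 5 of 6 connective tissue markers exceeded HC in each of TN1, TN2 and TN3, with none of either list at 0, and 8 of 12 sensory neuron markers were lower. The summed macrophage markers measured 345 to 678 CPM in TN and 175 CPM in HC, the connective tissue markers 1273 to 3384 CPM and 1323 CPM, and the sensory neuron markers 17795 to 20465 CPM and 21904 CPM. All 8 nerve injury markers were higher in the 3 TN areas, and 7 of 9 blood and bone markers were lower, with 0 higher. Of 10 peripheral myelin markers 3 were higher and 4 lower, and of 8 central myelin markers 1 was higher and 4 lower. Of all 13087 genes tested, 28.4% were higher and 30% lower in all 3 TN areas on TMM-scaled CPM. The marker counts used CPM without that scaling. Mitochondrial transcripts took 7.55%, 5.65% and 7.01% of ganglion UMIs in TN1, TN2 and TN3 and 5.06% in HC. Their part in the family's values was not tested.

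**Figure D5:**
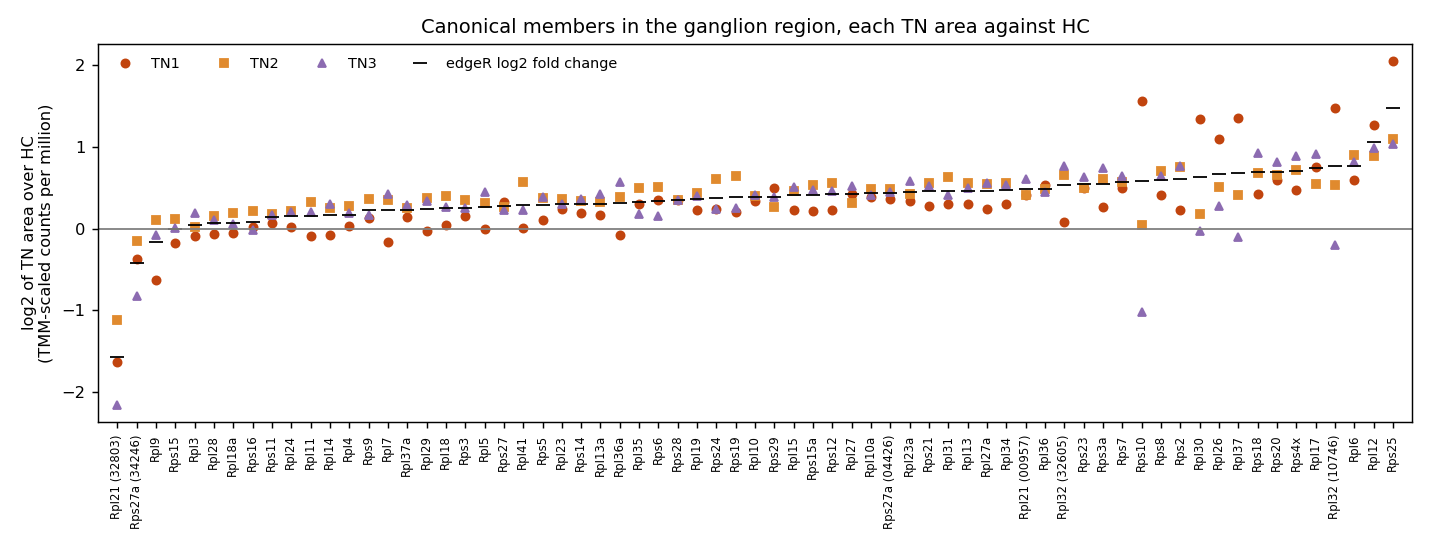
Log2 ratio of each TN area to HC in the ganglion region (vertical axis, TMM-scaled CPM) for 67 canonical members (horizontal axis), in the order of the edgeR log2 fold change drawn as a dash. For 49 of the 67 drawn, all 3 TN points lie above 0, and Rps10, Rpl30, Rpl37 and an Rpl32 row show TN1 far above TN2 and TN3.

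In central myelin, 0 of 83 members passed (0% of 9022 genes by edgeR, and 3.25% at an unadjusted p under 0.05, with 0 canonical members among them). The canonical median was 0.09 against 0.02 over all genes, and 21 of 67 canonical members (31.3%) lay above HC in all 3 TN areas, beside 20.3% of all genes. Rpl12 measured 479, 356 and 443 CPM (scaled by TMM) in TN1, TN2 and TN3 and 301 CPM in HC, with a log2 fold change of 0.50 ± 0.25 (SE, edgeR adjusted p = 0.999). Rpl4 lay on the other side, at 610, 679 and 736 CPM against 851 CPM (-0.33 ± 0.22). Rps4y2, Rps6kb1, Rps6ka3 and Rpl22l1 were the other members with all TN areas above HC and the highest fold changes, from 0.36 to 0.99, and Rpl9, Rps6ka2, the Rps27a row and Rps24 were below, from -0.57 to -0.17. Whether the contrast differs between the ganglion and central myelin was not tested.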

How the data were processed

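UMI counts of each spot under tissue, made by the authors with Space Ranger 1.2.0, were deposited as raw whole numbers. Genome build, annotation and any equalising of depth between areas are not stated in the paper or labels. The number after each barcode gave the capture area. The members, gene lists and tests were chosen with earlier results of these data known.

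Spots were clustered with K-means (10 clusters, 30 principal components, 3000 variable genes) without genes of an Rpl or Rps symbol. UMIs were summed per region and area with 20 spots or more and tested with edgeR's quasi-likelihood test (TMM, area as block, Benjamini-Hochberg adjusted p under 0.05), or with the summed canonical members as library size. TN was tested against HC without a block. No doublet caller was used, since a spot holds several cells. Named by rule were the 5 canonical members furthest above and below the family in each comparison among those called, each paralog-like member, the kinases called in the ganglion against central myelin, up to 4 called genes of each pathway list, and the 5 highest and lowest members of TN against HC with all TN areas on 1 side of HC. Rpl37a and the members that differed by area were chosen after their values were seen. P-values measure only the spread between areas of a single slide. The scripts were tested on simulated data. A canonical member that enters the counts is not reported by name here.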

Additional observations from a re-analysis of the deposited data

How the results depend on the processing

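Of 134 alternative values of the counts of members, 102 stayed within 1.5 times the value reported and 32 moved. For the named members, 933 of 1084 values kept direction and side of the threshold, 127 lost the call, 12 gained it and 12 reversed. The tissue comparisons had the area as a block. For TN against HC, no paired analysis was possible because HC is a single area whose label has no number. Without a block for the area, members called numbered 37 (ganglion against central myelin), 23 (ganglion against peripheral myelin), 2 (central against peripheral myelin) and 17 (blood and bone against ganglion), and members departing from the family 20, 10, 3 and 11. Without a filter on low counts, departing members numbered 16 (ganglion against peripheral myelin), 2 (central against peripheral myelin) and 16 (blood and bone against ganglion). With spots assigned by marker lists they numbered 16 in both of the last. For central against peripheral myelin, 8 clusters gave 19 called and 20 departing, DESeq2 13 called, and clusters made with ribosomal protein genes 3 departing. In TN against HC in the ganglion, DESeq2 called 1. The cause was not tested. Leaving out 1 area at a time gave 52 to 56 called and 22 to 29 departing members in the ganglion against central myelin, 17 to 59 and 9 to 21 against peripheral myelin, 4 to 11 and 3 to 3 in central against peripheral myelin, and 30 to 36 and 11 to 22 in blood and bone. It gave 0 to 5 called in TN against HC in the ganglion, the 5 being without TN1. Departing members numbered 22 without TN3 in the ganglion against central myelin.

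The values that reversed belonged to members not called in that comparison. Rpl22l1 in the ganglion against peripheral myelin became 0.057 with 8 clusters, 0.044 with cluster 2 alone (chosen after seeing the data) and 0.013 without the filter, and ranged from -0.19 to 0.15 as each area was left out. Rps27l in the ganglion against central myelin became 0.0076 without the block and 0.039 without the filter, and ranged from -0.25 to 0.044. In blood and bone against ganglion it became -0.020 with 8 clusters and -0.088 without the filter. With an area left out, Rps10l1 in central against peripheral myelin ranged from -0.27 to 0.0018 and Rps18l1 in the ganglion against central myelin from -0.48 to 0.10. DESeq2 size factors moved the median of all genes from 0.09 to -0.02 in the ganglion against central myelin, from 0.01 to -0.09 against peripheral myelin and from -0.05 to 0.05 in blood and bone, while the family's distance from it was -0.53, -0.41 and 0.40. HC is a single area, its peripheral myelin holds 20 spots, and shallow regions limit low-count members.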
